A study of Mus musculus with 16 samples.

Results

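The genes described here encode members of enzyme families known for adding or removing acetyl and methyl groups on histones. The families are histone deacetylases (Hdac genes), sirtuins (Sirt), lysine acetyltransferases (Kat), lysine methyltransferases (Kmt, Ezh and Setd) and lysine demethylases (Kdm). Some members act on other proteins or outside the nucleus, such as Hdac6 and the mitochondrial Sirt3, Sirt4 and Sirt5. All of these genes are called histone enzyme genes here. They were chosen by symbol, with earlier results of these data known. A gene was included when a probe set of the array carried exactly 1 symbol made of one of those stems and a digit, and the sex-linked Kdm5c, Kdm5d and Kdm6a were left out. This gave 59 genes of the 18193 that had a probe set with 1 symbol, and each gene was represented by its brightest probe set, by the mean of the 16 arrays. All but Kdm4d (mean 4.97, log2) were bright enough to be tested, which left 58 genes among 13011.

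Mouse striatal RNA was hybridised to Affymetrix Mouse Genome 430 2.0 arrays, and the deposited values are log2 levels of probe sets. There were 4 genotypes on a B6xCBA strain background with 4 biological replicates each, 16 arrays in all. Wild type mice carried neither alteration. DREAM+/- mice had 1 disrupted copy of Kcnip3, the gene of the calcium-dependent transcriptional repressor DREAM. R6/2 mice, a model of Huntington's disease, carry a transgene of huntingtin exon 1, human in origin, whose CAG repeat is expanded and which the human promoter drives, and so they express a fragment of the protein. R6/2 x DREAM+/- mice came from crossing DREAM knockout mice with R6/2 mice and carried both alterations. The sources used here do not give age, sex or any pooling of mice. The labels speak of striatal neurons, but the RNA was that of striatum as a whole, so the values describe all of its cells together.

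Acetyl groups on histone tails loosen chromatin and are bound by bromodomain proteins, and deacetylases remove them within corepressor complexes. Methyl groups act according to the lysine that carries them. Those placed by Kmt2a to Kmt2d and the Setd1 enzymes mark active promoters and enhancers. Those placed by Ezh1 and Ezh2 in Polycomb complexes mark silent genes. In Huntington's disease, mutant huntingtin binds acetyltransferases, and inhibitors of deacetylases have been tested in mouse models.

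As a check of the genotypes, Kcnip3 read 9.41, 9.89, 9.51 and 9.86 in wild type and 9.12, 9.06, 9.04 and 9.23 in R6/2, with 7.82, 7.77, 7.72 and 7.78 in DREAM+/- and 7.67, 7.43, 7.65 and 7.49 in R6/2 x DREAM+/- (log2 level, replicates in the order of their numbers, as in every list of array values that follows). Every array of the 2 genotypes with a disrupted allele lay below every array of the others. The DREAM+/- level was 26.9% of wild type and the R6/2 x DREAM+/- level 34.1% of R6/2. Kcnip3 was also lower in R6/2, at 68.1% of wild type (limma adjusted p 0.000306), so these groups were not alike in its level. In R6/2 x DREAM+/- it was at 86.3% of DREAM+/- (adjusted p 0.138). Arrays of a group correlated at 0.9903 to 0.9980. A pair of arrays stood apart. In R6/2 replicate 1, Xist read 6.49 against 11.04 to 12.16 on all other arrays. The Y-linked Eif2s3y read 8.91 there and 6.16 to 8.05 elsewhere, with 6.16, 6.46, 7.80 and 7.55 in wild type. No sex was assigned from these levels. R6/2 x DREAM+/- replicate 3 lay at -15.9 on a principal component (8.53% of the variance) where the others ran from -4.87 to 10.6.

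**Figure D1:**
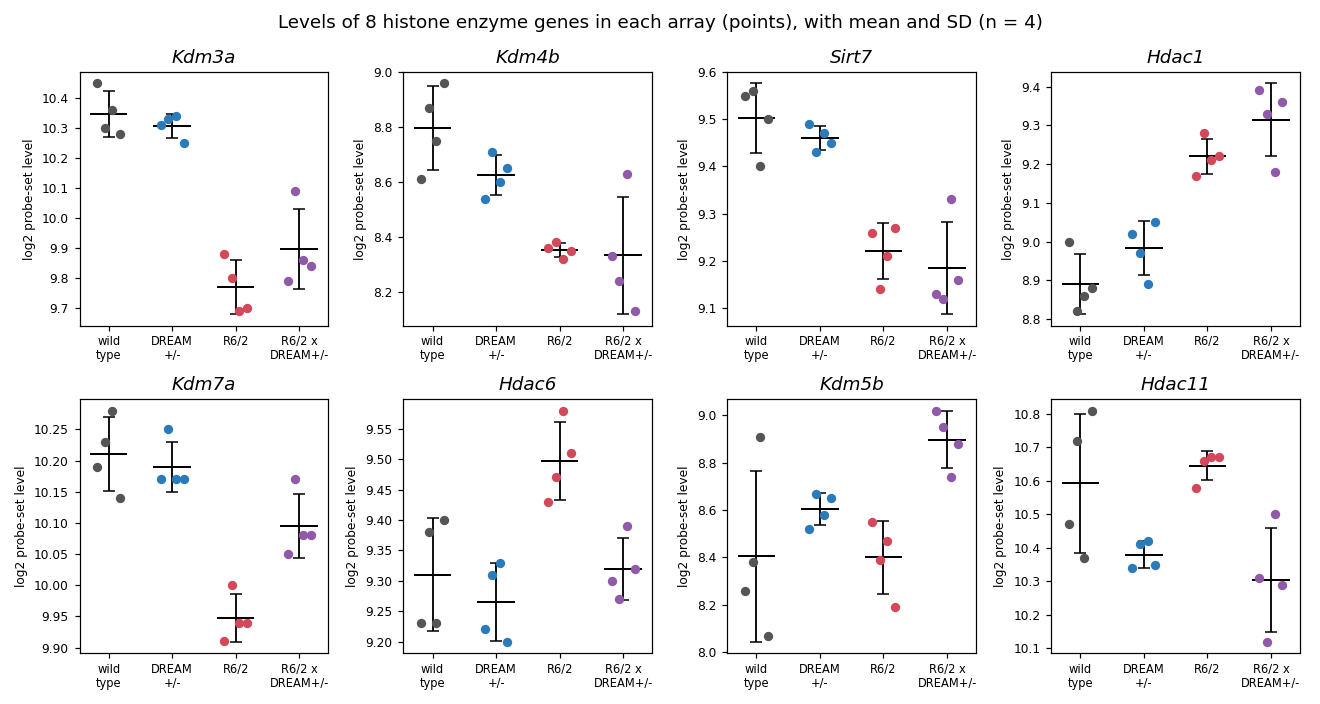
Log2 level of each array (points) and mean with SD of each genotype (black lines, n = 4) for 8 histone enzyme genes that passed the test in a comparison, 1 panel per gene with its own vertical axis. Hdac1 lies higher and Kdm3a and Sirt7 lie lower on every R6/2 array than on every wild type array, and Hdac11 lies lower and Kdm5b higher on every R6/2 x DREAM+/- array than on every R6/2 array.

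A minority of the histone enzyme genes differed with the R6/2 genotype, and 4 of them passed in the same direction in both DREAM backgrounds. Hdac1 was higher, and Kdm3a, Kdm4b and Sirt7 were lower. Between R6/2 and wild type, 11 of 58 genes (19.0%) passed at an adjusted p under 0.05 (limma, Benjamini-Hochberg over all genes tested), against 25.4% of all genes. Of these, 5 were higher (8.62%, against 13.5% of all genes) and 6 were lower (10.3%, against 11.9%). Between R6/2 x DREAM+/- and DREAM+/-, 5 of 58 genes (8.62%) passed, against 14.9% of all genes, with 1 higher (1.72%, against 7.07%) and 4 lower (6.90%, against 7.87%). In both comparisons the share of histone enzyme genes that passed with all arrays was below that of all genes. The counts were not stable. When single arrays were left out, 6 to 15 histone enzyme genes passed in the first comparison and 3 to 7 in the second.

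The changes of most histone enzyme genes were small. Their median change was 0.05 (log2) in R6/2 against wild type and 0.05 in R6/2 x DREAM+/- against DREAM+/-, beside medians of 0.03 and 0.02 over all genes. Regardless of sign the median change was 0.10 and 0.09, beside 0.11 and 0.09 over all genes. Fitted changes ran from -0.58 (Kdm3a) to 0.46 (Kdm6b) in the first comparison and from -0.41 (Kdm3a) to 0.33 (Hdac1) in the second. The Kdm6b value did not pass. No overlap between the arrays of both groups was seen for 8 genes (13.8%, against 25.2% of all genes) in the first comparison and for 11 (19.0%, against 18.9%) in the second.

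The comparisons of R6/2 with wild type and of R6/2 x DREAM+/- with DREAM+/- share no array. Across the 58 genes, their changes had the same sign for 44 and correlated with Pearson's r of 0.582 and Spearman's rho of 0.466, as a description across genes, which are not independent. Over all 13011 genes the sign was the same for 9891, r was 0.798 and rho 0.695. Without Kdm3a, the gene farthest from 0, r over the histone enzymes was 0.477. The 4 shared genes made up 36.4% of those that passed in the first comparison and 80.0% of those in the second, and no gene passed with opposite signs. Over all genes, 1463 were shared in the same direction, 44.2% and 75.3% of the respective lists.

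**Figure D2:**
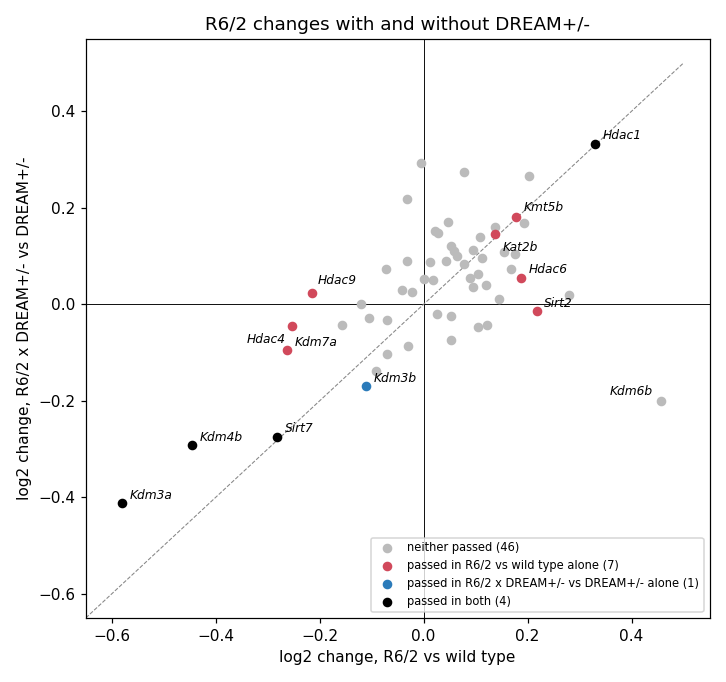
Log2 change of each of the 58 tested histone enzyme genes in R6/2 against wild type (horizontal) and in R6/2 x DREAM+/- against DREAM+/- (vertical), with genes that passed in either comparison and Kdm6b named, and the dashed line marking equal changes. Kdm3a, Kdm4b and Sirt7 lie at the lower left and Hdac1 at the upper right, while most genes lie within 0.2 of 0 on both axes.

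Markers of medium spiny neurons, the main cells of the striatum, moved with the R6/2 genotype. Of 10 markers, 8 were lower in R6/2 than in wild type and 9 were lower in R6/2 x DREAM+/- than in DREAM+/-. Their summed level, taken as log2 of the sum of linear values, was 15.67 to 15.74 in wild type and 15.07 to 15.24 in R6/2, with 15.58 to 15.65 in DREAM+/- and 14.97 to 15.27 in R6/2 x DREAM+/-. Interneuron markers were lower for 7 of 9 in both comparisons, with Chat below the brightness filter, and oligodendrocyte markers for 3 of 7 in both (Mal, Ugt8a and Mobp). The summed level of 8 astrocyte markers was 14.13 to 14.30 in wild type and 14.02 to 14.10 in R6/2, with no overlap, where 3 were lower and 1 higher, and 14.24 to 14.27 in DREAM+/- and 14.04 to 14.27 in R6/2 x DREAM+/-, where 2 were lower. In such bulk samples, fewer cells of a type and less RNA per cell cannot be told apart. The part that these shifts have in the changes of the histone enzyme genes was not tested.

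The upstream sequences of Kdm3a and Sirt7 are shown because both genes fell in both R6/2 comparisons with no overlap between groups. They come from the RefSeq promoter table of GRCm38.p6, which held 67 starts of 47 of the 59 genes, and Hdac1 and Kdm4b are not among them. Shown are the bases upstream of a start that lie outside every gene of the RefSeq gene table, 5′ to 3′ on the minus strand. Capitals mark GGGCGG, the core bound by Sp1, or its complement CCGCCC. The Kdm3a stretch is chr6:71632991-71633167, upstream of the 5′-most of 3 starts, and the Sirt7 stretch is chr11:120625015-120625116, upstream of its only start.
Kdm3a: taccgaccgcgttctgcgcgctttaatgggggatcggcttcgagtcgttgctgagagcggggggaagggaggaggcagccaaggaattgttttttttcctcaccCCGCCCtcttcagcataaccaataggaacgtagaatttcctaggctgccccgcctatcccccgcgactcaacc
Sirt7: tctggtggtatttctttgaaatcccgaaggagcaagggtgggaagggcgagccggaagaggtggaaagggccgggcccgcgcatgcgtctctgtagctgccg

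The Kdm3a stretch holds 1 match to GGGCGG on either strand and the Sirt7 stretch none. Neither stretch holds GTCA, the core of the element that DREAM binds, on either strand. The full windows of 250 bases upstream of each start hold more: GTCA is in those of 2 of the 3 Kdm3a starts and not in that of Sirt7, and GGGCGG is in 2 of the 3 for Kdm3a and in that of Sirt7. Over all such windows, GGGCGG was found in 58.2% of the 67 windows of histone enzyme genes and in 32.7% of all 32851 windows. GTCA was found in 73.1% and 80.2% of them. Several starts can belong to 1 gene and share sequence, and these shares are a description only.

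Among the class I deacetylases, of which Hdac1 and Hdac2 work within the Sin3, NuRD and CoREST complexes, Hdac1 rose in R6/2 striatum in both backgrounds. Hdac1 read 9.00, 8.82, 8.86 and 8.88 in wild type and 9.17, 9.28, 9.21 and 9.22 in R6/2, with 9.02, 8.97, 8.89 and 9.05 in DREAM+/- and 9.39, 9.33, 9.18 and 9.36 in R6/2 x DREAM+/-. Every array with the transgene lay above every array without it. The change was 0.33 ± 0.06 (log2, SE) in both R6/2 comparisons, with adjusted p of 0.000423 and 0.000687 (limma), which is 126% of the respective control level. Hdac1 has a single probe set, so no other probe set could be set beside it.

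The other class I genes did not pass in any comparison. Hdac2 read 10.74, 10.67, 10.80 and 10.56 in wild type and 10.78, 10.72, 10.80 and 10.78 in R6/2, with 10.76, 10.84, 10.77 and 10.88 in DREAM+/- and 10.86, 11.03, 10.79 and 10.90 in R6/2 x DREAM+/-. Hdac3, the enzyme of the NCoR complex, read 9.33, 9.28, 9.44 and 9.16 in wild type and 9.38, 9.34, 9.40 and 9.47 in R6/2, with 9.36, 9.30, 9.37 and 9.34 in DREAM+/- and 9.36, 9.49, 9.30 and 9.36 in R6/2 x DREAM+/-. Hdac8 read 6.52, 6.52, 6.78 and 6.57 in wild type and 6.41, 6.41, 6.65 and 6.50 in R6/2, with 6.51, 6.64, 6.61 and 6.53 in DREAM+/- and 6.58, 6.53, 6.53 and 6.54 in R6/2 x DREAM+/-. The groups overlapped for all of them. By brightest probe set, the 95% intervals for R6/2 against wild type were -0.05 to 0.20 for Hdac2 and -0.03 to 0.22 for Hdac3. That for Hdac8 was -0.24 to 0.03 (log2). Other Hdac2 probe sets were at 0.025 and -0.48 in that comparison. The highest Hdac2 value in R6/2 x DREAM+/- against R6/2 was 0.82. None of these passed in a fit over probe sets.

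Class IIa deacetylases carry a signal that lets calcium-dependent kinases move them out of the nucleus, and they repress Mef2 target genes. Hdac9 and Hdac4 were lower in R6/2 than in wild type, and neither passed on the DREAM+/- background. Hdac4, whose reduction has been tested in mice with the transgene, read 8.02, 8.25, 7.97 and 8.15 in wild type and 7.72, 8.07, 7.78 and 7.81 in R6/2, with 8.02, 8.10, 8.04 and 7.97 in DREAM+/- and 7.94, 8.02, 8.13 and 7.86 in R6/2 x DREAM+/-. It fell by 0.25 ± 0.08 against wild type (log2, SE, limma adjusted p 0.0261), to 83.9% of its level, with R6/2 replicate 2 within the wild type range. Hdac9 read 7.73, 7.66, 7.69 and 7.42 in wild type and 7.44, 7.46, 7.43 and 7.31 in R6/2, with 7.54, 7.42, 7.51 and 7.45 in DREAM+/- and 7.58, 7.44, 7.54 and 7.45 in R6/2 x DREAM+/-. Wild type replicate 4 lay among the R6/2 arrays, and the decrease was 0.22 ± 0.06 (adjusted p 0.0205), to 86.2%.

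Both of these calls depended on single arrays. The Hdac4 call did not hold without wild type replicate 2 or 4, nor without R6/2 replicate 1, 3 or 4, with adjusted p of 0.0587 to 0.0882 (limma), and the values of its other probe sets were both -0.02. The Hdac9 call did not hold without wild type replicate 1, 2 or 3, nor without R6/2 replicate 4, with adjusted p of 0.0512 to 0.0693, and the value of its other probe set was -0.06. On the DREAM+/- background the values were -0.04 for Hdac4 (adjusted p 0.763) and 0.02 for Hdac9 (adjusted p 0.859).

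The remaining class IIa genes did not pass in any comparison. Hdac5 read 9.81, 10.11, 9.76 and 10.15 in wild type and 9.81, 9.92, 9.90 and 9.92 in R6/2, with 9.75, 9.81, 9.82 and 9.69 in DREAM+/- and 9.43, 9.65, 9.96 and 9.62 in R6/2 x DREAM+/-. Hdac7 read 7.62, 7.76, 7.45 and 7.96 in wild type and 7.85, 7.90, 7.85 and 7.86 in R6/2, with 7.61, 7.66, 7.68 and 7.74 in DREAM+/- and 7.61, 7.82, 7.87 and 7.68 in R6/2 x DREAM+/-. Wild type arrays spread widely for both genes, and all groups overlapped in wild type comparisons.

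Hdac6, a class IIb deacetylase that acts on tubulin in the cytoplasm, was higher in R6/2 than in wild type and lower in R6/2 x DREAM+/- than in R6/2. It read 9.23, 9.38, 9.23 and 9.40 in wild type and 9.43, 9.47, 9.58 and 9.51 in R6/2, with 9.22, 9.31, 9.33 and 9.20 in DREAM+/- and 9.30, 9.27, 9.39 and 9.32 in R6/2 x DREAM+/-. The R6/2 arrays lay above all others. The increase against wild type was 0.19 ± 0.06 (log2, SE, limma adjusted p 0.0190), to 114%, and the decrease against R6/2 was 0.18 ± 0.06 (adjusted p 0.0410), to 88.4%. The R6/2 call did not hold without wild type replicate 1 or 3, nor without R6/2 replicate 3 (adjusted p 0.0604 to 0.0660). Hdac10, of the same class, read 7.15, 7.34, 7.19 and 7.27 in wild type and 7.41, 7.22, 7.29 and 7.51 in R6/2, with 7.17, 7.19, 7.17 and 7.24 in DREAM+/- and 6.98, 7.15, 7.44 and 7.36 in R6/2 x DREAM+/-, with no call.

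Sirtuins are deacetylases that consume NAD, and they sit in different compartments. Sirt7, the nucleolar member, fell in both R6/2 comparisons. It read 9.55, 9.56, 9.40 and 9.50 in wild type and 9.26, 9.14, 9.21 and 9.27 in R6/2, with 9.49, 9.43, 9.47 and 9.45 in DREAM+/- and 9.13, 9.12, 9.33 and 9.16 in R6/2 x DREAM+/-. All arrays with the transgene lay below all arrays without it. The decreases were 0.28 ± 0.05 against wild type (log2, SE, limma adjusted p 0.00118), to 82.2%, and 0.28 ± 0.05 against DREAM+/- (adjusted p 0.00246), to 82.6%. Sirt7 has a single probe set.

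Sirt2, a mainly cytoplasmic sirtuin that is abundant in oligodendrocytes, was higher in R6/2 than in wild type. It read 11.03, 11.15, 10.89 and 11.28 in wild type and 11.23, 11.33, 11.23 and 11.43 in R6/2, with 11.16, 11.09, 11.09 and 11.16 in DREAM+/- and 11.13, 11.10, 11.08 and 11.13 in R6/2 x DREAM+/-. The increase was 0.22 ± 0.07 (log2, SE, limma adjusted p 0.0281), to 116%, with wild type replicate 4 inside the R6/2 range. The call did not hold without wild type replicate 1 or 3, nor without R6/2 replicate 2 or 4 (adjusted p 0.0625 to 0.0978). Between R6/2 x DREAM+/- and DREAM+/- the value was -0.01 (adjusted p 0.916). The summed level of 7 oligodendrocyte markers was 15.63 to 15.77 in wild type and 15.48 to 15.59 in R6/2.

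Sirt1, the nuclear sirtuin, read 8.01, 7.87, 8.17 and 7.73 in wild type and 8.23, 8.50, 8.06 and 7.80 in R6/2, with 7.87, 7.87, 7.88 and 7.95 in DREAM+/- and 8.40, 8.14, 8.07 and 8.02 in R6/2 x DREAM+/-. Its R6/2 arrays spanned 7.80 to 8.50. The values of 0.20 ± 0.12 against wild type and 0.27 ± 0.12 against DREAM+/- (log2, SE) did not pass (adjusted p 0.234 and 0.159, limma), although all R6/2 x DREAM+/- arrays lay above all DREAM+/- arrays. The mitochondrial Sirt3, Sirt4 and Sirt5 and the nuclear Sirt6 did not pass in any comparison, with values of -0.04 to 0.11 in R6/2 against wild type.

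Of the 8 acetyltransferases, only Kat2b passed in R6/2 against wild type, and none passed in R6/2 x DREAM+/- against DREAM+/-. Kat2b, also called PCAF, read 9.58, 9.62, 9.66 and 9.73 in wild type and 9.81, 9.79, 9.83 and 9.71 in R6/2, with 9.59, 9.69, 9.67 and 9.74 in DREAM+/- and 9.78, 9.83, 9.85 and 9.81 in R6/2 x DREAM+/-. The arrays of R6/2 x DREAM+/- lay above those of DREAM+/-, while R6/2 replicate 4 lay within the wild type range. The values were 0.14 ± 0.05 (log2, SE, limma adjusted p 0.0466), or 110% of wild type, and 0.14 ± 0.05 (adjusted p 0.0535), or 111% of DREAM+/-, so they were alike and lay on either side of the threshold. The first call was lost when any of 12 of the 16 arrays was left out (adjusted p 0.0501 to 0.127) and kept only without wild type replicate 4, DREAM+/- replicate 1, R6/2 replicate 4 or R6/2 x DREAM+/- replicate 3.

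Some further acetyltransferases came near the threshold in R6/2 against wild type. The value of Kat7, the enzyme of the HBO1 complex, was 0.14 ± 0.05 (log2, SE, limma adjusted p 0.0537), that of Kat6b 0.16 ± 0.06 (adjusted p 0.0580) and that of Kat5, the enzyme of the TIP60 complex, 0.11 ± 0.05 (adjusted p 0.123). Kat6b arrays did not overlap, with 9.61 to 9.72 in R6/2 and 9.47 to 9.57 in wild type. The values of Kat6a, Kat2a, Kat8 and Kat14 were -0.03, 0.10, 0.02 and -0.02.

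None of the 8 genes listed here as methyltransferases of lysine 4 of histone H3 passed in either R6/2 comparison by its brightest probe set. Kmt2e is among them by the list, and activity on this lysine was not measured for any of the 8. In a fit over probe sets, another bright probe set of Kmt2e passed at 0.27 in R6/2 against wild type (limma adjusted p 0.0268), and another of Setd1b at 0.21 on the DREAM+/- background (adjusted p 0.0441). Setd1b also passed there by the mean of its probe sets, at 0.18 (adjusted p 0.0258). By brightest probe set, values ran from -0.03 to 0.14 in R6/2 against wild type and from 0.05 to 0.16 in R6/2 x DREAM+/- against DREAM+/- (log2). In the second comparison all 8 values were above 0, as were 38 of all 58 histone enzyme genes and 7361 of all 13011 genes. Kmt2a, also called Mll1, read 9.29, 9.48, 9.25 and 9.74 in wild type and 9.22, 9.72, 9.49 and 9.33 in R6/2, with 9.23, 9.29, 9.26 and 9.25 in DREAM+/- and 9.10, 9.28, 9.63 and 9.23 in R6/2 x DREAM+/-. Its DREAM+/- arrays lay close together, while each other group spread more widely, and the value for R6/2 against wild type was 0.00 ± 0.12 (SE).

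The Polycomb methyltransferases Ezh1, the form of mature neurons, and Ezh2, the form of dividing cells, did not pass in any comparison. Ezh1 read 9.90, 9.97, 9.80 and 10.01 in wild type and 9.93, 9.85, 9.79 and 9.82 in R6/2, with 9.75, 9.80, 9.80 and 9.82 in DREAM+/- and 9.82, 9.75, 10.02 and 9.87 in R6/2 x DREAM+/-. Ezh2 read 7.34, 7.26, 7.38 and 7.29 in wild type and 7.36, 7.17, 7.22 and 7.24 in R6/2, with 7.30, 7.16, 7.21 and 7.27 in DREAM+/- and 7.12, 7.32, 7.44 and 6.93 in R6/2 x DREAM+/-. All groups overlapped for both genes. The 95% intervals for R6/2 against wild type were -0.20 to 0.05 for Ezh1 and -0.24 to 0.10 for Ezh2 (log2). The Ezh1 value depended on the probe set. Its brightest was at -0.07 and the other 3, which were dimmer, at 0.14, 0.28 and 0.27, of which the second passed in a fit over probe sets (limma adjusted p 0.0396). The mean of all 4 passed at 0.15 (adjusted p 0.0402), opposite in sign to the brightest.

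Of the 8 other methyltransferases, only Kmt5b passed in R6/2 against wild type. Kmt5b, also called Suv420h1, methylates histone H4. It read 9.07, 9.12, 8.99 and 8.89 in wild type and 9.19, 9.18, 9.30 and 9.11 in R6/2, with 9.07, 9.00, 9.13 and 8.94 in DREAM+/- and 9.25, 9.19, 9.27 and 9.15 in R6/2 x DREAM+/-. Only R6/2 replicate 4 overlapped with wild type, and the arrays of R6/2 x DREAM+/- lay above those of DREAM+/-. The values were 0.18 ± 0.06 (log2, SE, limma adjusted p 0.0388) and 0.18 ± 0.06 (adjusted p 0.0530), or 113% of the control level in both. All 5 probe sets of Kmt5b were higher in R6/2 than in wild type. The first call did not hold without wild type replicate 3 or 4, nor without R6/2 replicate 1, 2 or 3 (adjusted p 0.0625 to 0.122). The value of Setd2, which methylates lysine 36 of histone H3, was -0.16 ± 0.06 (adjusted p 0.0564) in R6/2 against wild type.

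The demethylases with a JmjC domain, which need oxygen, iron and oxoglutarate, included the genes with the lowest values. They did not fall as a family. Their median change was 0.02 (log2) in R6/2 against wild type and -0.02 in R6/2 x DREAM+/- against DREAM+/-. The highest value of the first comparison, 0.46 for Kdm6b, was also theirs, though it did not pass. Of 12 tested, 3 were lower in R6/2 than in wild type (Kdm3a, Kdm4b and Kdm7a) and 3 were lower in R6/2 x DREAM+/- than in DREAM+/- (Kdm3a, Kdm4b and Kdm3b), and none was higher. Over all genes 11.9% and 7.87% were lower, and 25.4% and 14.9% passed in either direction. Kdm3a, a demethylase of lysine 9 of histone H3 that is induced by hypoxia, read 10.45, 10.30, 10.36 and 10.28 in wild type and 9.88, 9.80, 9.69 and 9.70 in R6/2, with 10.31, 10.33, 10.34 and 10.25 in DREAM+/- and 9.79, 10.09, 9.86 and 9.84 in R6/2 x DREAM+/-. Every array with the transgene lay below every array without it. It fell by 0.58 ± 0.07 against wild type (log2, SE, limma adjusted p 7.33e-06), to 66.9%, and by 0.41 ± 0.07 against DREAM+/- (adjusted p 0.000351), to 75.1%. The difference between these changes was 0.17 ± 0.09 (adjusted p 0.783), with a 95% interval of -0.03 to 0.36.

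Kdm4b, which acts on the same lysine, read 8.61, 8.87, 8.75 and 8.96 in wild type and 8.36, 8.38, 8.32 and 8.35 in R6/2, with 8.54, 8.71, 8.60 and 8.65 in DREAM+/- and 8.33, 8.24, 8.63 and 8.13 in R6/2 x DREAM+/-. R6/2 arrays lay below all wild type arrays, while R6/2 x DREAM+/- replicate 3 lay within the DREAM+/- range. Kdm4b fell by 0.44 ± 0.09 against wild type (log2, SE, limma adjusted p 0.00143), to 73.5%, and by 0.29 ± 0.09 against DREAM+/- (adjusted p 0.0335), to 81.6%. The second call was lost without DREAM+/- replicate 2, 3 or 4 or R6/2 x DREAM+/- replicate 1, 2 or 4 (adjusted p 0.0623 to 0.111). Without both arrays that stand apart its second decrease was 0.39 (adjusted p 0.00200). Kdm3a and Kdm4b each have a single probe set.

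Kdm7a, which removes methyl groups from lysines 9 and 27 of histone H3, read 10.19, 10.23, 10.28 and 10.14 in wild type and 9.91, 10.00, 9.94 and 9.94 in R6/2, with 10.17, 10.25, 10.17 and 10.17 in DREAM+/- and 10.05, 10.17, 10.08 and 10.08 in R6/2 x DREAM+/-. The R6/2 arrays lay below all others. It fell by 0.26 ± 0.05 against wild type (log2, SE, limma adjusted p 0.000536), to 83.4%, and 4 of its 5 probe sets were lower. Against DREAM+/- the value was -0.10 ± 0.05 (adjusted p 0.191). Kdm3b read 9.13, 9.18, 9.21 and 9.19 in DREAM+/- and 8.87, 9.03, 9.05 and 9.08 in R6/2 x DREAM+/-, with no overlap. It fell by 0.17 ± 0.05 there (adjusted p 0.0424), to 88.9%. That call was lost without any 1 of the 4 DREAM+/- arrays, R6/2 replicate 3 or 4 or R6/2 x DREAM+/- replicate 1 or 2 (adjusted p 0.0501 to 0.139), and the value of its other, dimmer probe set was 0.12.

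Kdm6b, a demethylase of lysine 27 of histone H3 that responds to activity and inflammation, varied most within groups. It read 9.52, 9.69, 8.40 and 9.29 in wild type and 9.71, 9.67, 9.66 and 9.69 in R6/2, with 9.14, 9.13, 9.23 and 9.22 in DREAM+/- and 9.47, 7.83, 9.21 and 9.41 in R6/2 x DREAM+/-. A single low array in wild type (replicate 3) and in R6/2 x DREAM+/- (replicate 2) set the spread, at 0.574 and 0.775 (SD), against 0.022 in R6/2. The values of 0.46 ± 0.29 and -0.20 ± 0.29 (log2, SE) did not pass (adjusted p 0.260 and 0.702, limma). A dimmer probe set of Kdm6b passed at 0.27 in R6/2 against wild type in a fit over probe sets (limma adjusted p 0.0455). So did one of Sirt5 at 0.17 (adjusted p 0.0447) and one of Setd6 at 0.32 (adjusted p 0.0210). Below the brightness filter, one of Kat6a passed at 0.21 (adjusted p 0.0273). The brightest probe sets of Sirt5 and Kat6a were opposite in sign, at -0.04 and -0.03, and that of Setd6 was at 0.08. Kdm1a, the amine oxidase demethylase of CoREST, read 10.31, 10.14, 10.12 and 9.96 in wild type and 10.16, 10.15, 10.18 and 10.11 in R6/2, with 10.18, 10.14, 10.14 and 10.17 in DREAM+/- and 10.19, 10.20, 10.23 and 10.21 in R6/2 x DREAM+/-, and did not pass in any comparison.

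The demethylases not named so far did not pass in the R6/2 comparisons. The value of Kdm2a was 0.28 ± 0.11 in R6/2 against wild type (log2, SE, limma adjusted p 0.0724), with R6/2 at 8.44 to 8.78 above all wild type arrays, and 0.02 ± 0.11 on the DREAM+/- background. The value of Kdm5a, a demethylase of lysine 4 of histone H3, was 0.17 ± 0.07 in R6/2 x DREAM+/- against DREAM+/- (adjusted p 0.0976), with no overlap, and 0.05 ± 0.07 in the other comparison. Values of Kdm1b, Kdm4a, Kdm4c and Kdm8 were 0.10 to 0.19 in R6/2 against wild type. Kdm4d, the gene below the brightness filter, had group means of 4.90 to 5.08 and was not tested. Among the methyltransferases, Setd6 was at 0.28 ± 0.10 and Setd7 at 0.15 ± 0.07 in R6/2 x DREAM+/- against DREAM+/- (adjusted p 0.0855 and 0.167), and Setd3, Setd4, Setd5 and Kmt5c at -0.14 to 0.12.

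**Figure D3:**
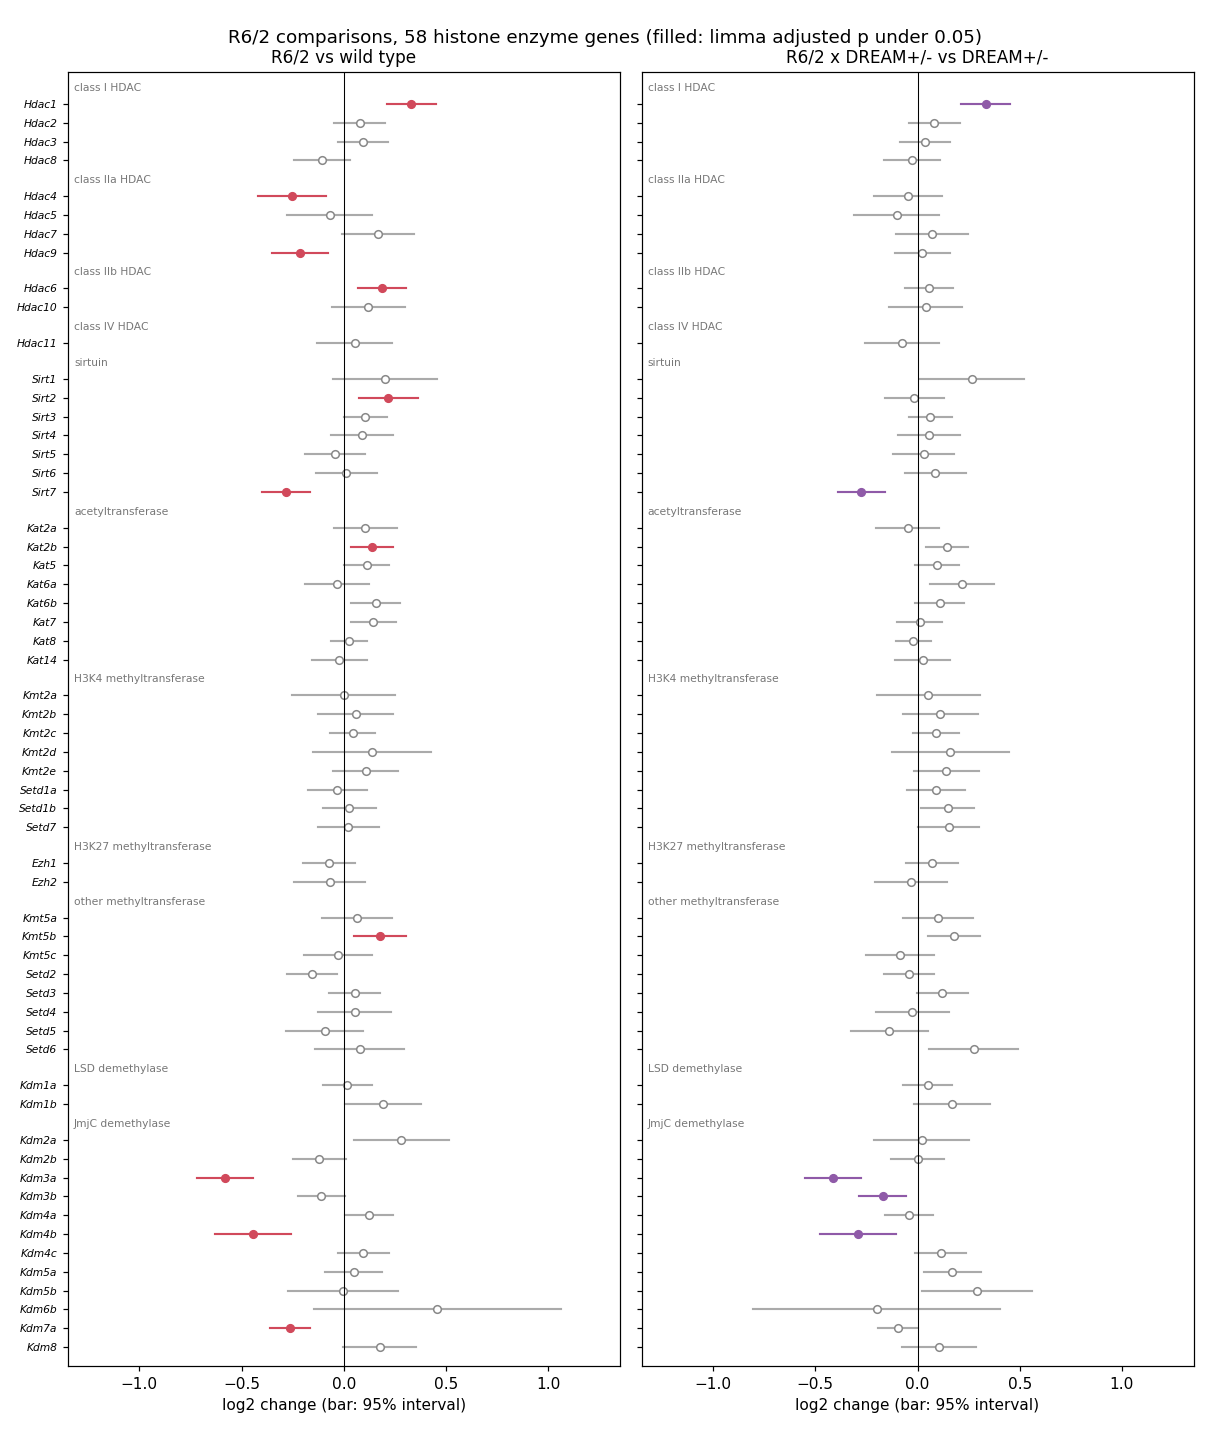
Log2 change (points) with 95% interval (lines) of each tested histone enzyme gene, grouped by role, in R6/2 against wild type (left) and R6/2 x DREAM+/- against DREAM+/- (right), with filled points for genes that passed. Kdm3a has the lowest change in both panels, -0.58 and -0.41, Hdac1 is at 0.33 in both, and Kdm6b has the widest intervals.

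In mice without the transgene, no histone enzyme gene passed the threshold between the DREAM genotypes. Between DREAM+/- and wild type, 0 of 58 genes passed (limma), against 3.68% of all genes, and 10 of 58 (17.2%) had an unadjusted p under 0.05, against 18.4% of all genes. The 10 were Ezh1, Hdac9, Hdac11, Kdm2b, Kdm4a, Kmt2b, Kmt2d, Kmt5a, Setd1a and Sirt4. The median change was -0.04 (log2), beside -0.03 over all genes, and 18 of 58 values were above 0. Over all 13011 genes 5181 values were above 0. Groups did not overlap for 6 genes (10.3%, against 12.5% of all genes), and all 6 were lower in DREAM+/- (Kat14, Kdm5a, Kmt2b, Kmt5a, Setd2 and Sirt4), where 7.94% of all genes lay lower without overlap. Kat14 is the only histone enzyme gene on the chromosome of Kcnip3, with 281 genes between them.

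The values nearest to the threshold were those of methyltransferases. Kmt5a, the mono-methyltransferase of histone H4, read 9.12, 9.39, 9.28 and 9.35 in wild type and 9.10, 9.00, 9.11 and 8.93 in DREAM+/-, a difference of -0.25 ± 0.08 (log2, SE, limma adjusted p 0.0963). Kmt2b read 8.99, 9.20, 8.97 and 9.27 in wild type and 8.83, 8.78, 8.87 and 8.92 in DREAM+/-, a difference of -0.26 ± 0.09 (adjusted p 0.117). Both groups lay apart for each gene. Without R6/2 x DREAM+/- replicate 3, an array outside this comparison that enters the shared estimate of spread, both passed (adjusted p 0.0379 for Kmt5a and 0.0296 for Kmt2b). Without wild type replicate 3, Kdm5b passed at 0.37 (adjusted p 0.0251), and without wild type replicate 4, Hdac9 passed at -0.21 (adjusted p 0.0465).

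Between R6/2 x DREAM+/- and R6/2, 7 of 58 histone enzyme genes passed (12.1%), against 14.0% of all genes. Higher in R6/2 x DREAM+/- than in R6/2 were Kdm2b, Kat6a, Kdm5b and Kdm7a (6.90%, against 5.33%), and lower were Hdac11, Kat2a and Hdac6 (5.17%, against 8.65%). The groups did not overlap for 9 genes (15.5%, against 15.8% of all genes). The median change was -0.02 (log2), beside -0.03 over all genes. This comparison shares its R6/2 arrays with that of R6/2 and wild type. Of its 7 genes, Kdm7a and Hdac6 also passed there.

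The calls in this comparison depended on which arrays were kept. Without R6/2 x DREAM+/- replicate 3, the array that stood apart, 13 genes passed, 4 higher and 9 lower, with Hdac5, Kat7, Kdm2a, Kmt2b, Kmt5a and Sirt4 added to the lower ones. Without both arrays that stand apart 11 passed, 2 higher and 9 lower. Without R6/2 x DREAM+/- replicate 2 only 3 passed, all higher, and without R6/2 replicate 4 only 4.

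Hdac11, the only class IV deacetylase, read 10.47, 10.72, 10.37 and 10.81 in wild type and 10.58, 10.66, 10.67 and 10.67 in R6/2, with 10.34, 10.41, 10.42 and 10.35 in DREAM+/- and 10.31, 10.12, 10.50 and 10.29 in R6/2 x DREAM+/-. Every R6/2 x DREAM+/- array lay below every R6/2 array. It fell by 0.34 ± 0.09 (log2, SE, limma adjusted p 0.0168), to 79.0% of R6/2, and its other probe set was lower by 0.23 without passing in a fit over probe sets. Between DREAM+/- and wild type the value was -0.21 ± 0.09 (adjusted p 0.195). The call was lost without R6/2 x DREAM+/- replicate 2 (adjusted p 0.0594).

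Kat2a, also called GCN5 and the enzyme of the SAGA complex, read 9.71, 9.91, 9.58 and 9.82 in wild type and 9.86, 9.93, 9.80 and 9.85 in R6/2, with 9.60, 9.65, 9.63 and 9.64 in DREAM+/- and 9.56, 9.40, 9.76 and 9.61 in R6/2 x DREAM+/-. The groups with and without the disrupted allele did not overlap within R6/2. It fell by 0.28 ± 0.07 (log2, SE, limma adjusted p 0.0195), to 82.5% of R6/2, and all 3 of its probe sets were lower. The call was lost without R6/2 replicate 2 (adjusted p 0.0545) or R6/2 x DREAM+/- replicate 2 (adjusted p 0.0666). The Hdac6 call was lost without DREAM+/- replicate 2, R6/2 replicate 2, 3 or 4 or R6/2 x DREAM+/- replicate 1, 2 or 4 (adjusted p 0.0520 to 0.110).

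Kdm5b, a demethylase of lysine 4 of histone H3, had the highest change in this comparison. It read 8.26, 8.38, 8.91 and 8.07 in wild type and 8.55, 8.39, 8.47 and 8.19 in R6/2, with 8.52, 8.67, 8.58 and 8.65 in DREAM+/- and 9.02, 8.95, 8.74 and 8.88 in R6/2 x DREAM+/-. Its wild type arrays spanned more than any other group, and all R6/2 x DREAM+/- arrays lay above all R6/2 arrays. The change was 0.50 ± 0.13 (log2, SE, limma adjusted p 0.0176), to 141% of R6/2, and it was lost without R6/2 replicate 4 (0.43, adjusted p 0.0603). The values of its other 3 probe sets were 0.01 to 0.10, with none past the threshold, and the mean of all 4 did not pass, at 0.16 (adjusted p 0.0550).

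Kdm2b, which recruits a Polycomb complex to CpG islands, read 8.82, 8.80, 8.94 and 8.62 in wild type and 8.64, 8.68, 8.74 and 8.64 in R6/2, with 8.87, 9.02, 8.96 and 8.88 in DREAM+/- and 8.85, 8.99, 8.93 and 8.96 in R6/2 x DREAM+/-. The latter lay above all R6/2 arrays. The change was 0.26 ± 0.06 (log2, SE, limma adjusted p 0.0128), to 120%, and the value of the other Kdm2b probe set was -0.10. Kat6a, the enzyme of the MOZ complex, read 9.40, 9.29, 9.37 and 9.43 in wild type and 9.26, 9.44, 9.41 and 9.25 in R6/2, with 9.40, 9.45, 9.31 and 9.54 in DREAM+/- and 9.43, 9.80, 9.70 and 9.64 in R6/2 x DREAM+/-. Replicate 1 of R6/2 x DREAM+/- lay within the R6/2 range. The change was 0.30 ± 0.07 (adjusted p 0.0137), to 123%, while its 2 dimmer probe sets had values of -0.02 and -0.10. Without both arrays that stand apart the Kat6a value was 0.26 (adjusted p 0.0508).

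Kdm7a rose by 0.15 ± 0.05 in R6/2 x DREAM+/- against R6/2 (log2, SE, limma adjusted p 0.0432), to 111%, with no overlap. This call was lost without wild type replicate 2, any 1 of the 4 DREAM+/- arrays, R6/2 replicate 1, 3 or 4, or R6/2 x DREAM+/- replicate 2 or 4 (adjusted p 0.0518 to 0.125). Of its 5 probe sets 4 were above 0 and the other, also bright, was at -0.30, and with their mean the value was 0.01 (adjusted p 0.906). The Sirt2 value was -0.20 ± 0.07 (adjusted p 0.0671), also with no overlap. The Kdm6b value was -0.70 ± 0.29 (adjusted p 0.110), with R6/2 x DREAM+/- replicate 2 at 7.83. In a fit over probe sets, dimmer probe sets of genes without a call here passed for Kmt2e at 0.95 (limma adjusted p 0.0200), Kmt2c at 0.64 (adjusted p 0.0324), Setd1a at 0.28 (adjusted p 0.0287, below the brightness filter) and Setd6 at -0.34 (adjusted p 0.0259). The brightest probe sets had the opposite sign for Kmt2e (-0.08), Setd1a (-0.02) and Setd6 (0.14), and that of Kmt2c was at 0.02. By the mean of its probe sets Kmt2c passed too, at 0.24 (adjusted p 0.0434).

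Markers of other cells moved in this comparison too. Of 7 markers of cortical projection neurons, which are not striatal cells, 5 were higher in R6/2 x DREAM+/- than in R6/2 and 5 were lower in R6/2 than in wild type. Their summed level was 12.78 to 12.88 in wild type and 12.41 to 12.48 in R6/2, with 12.84 to 13.09 in DREAM+/- and 12.63 to 12.89 in R6/2 x DREAM+/-. Choroid plexus markers spanned 13.33 to 14.50 in R6/2 and 14.27 to 14.72 in R6/2 x DREAM+/-, with Kcne2 as the 1 of 6 that passed. The summed level of 8 microglial markers was 12.64 to 12.75 in R6/2 and 12.86 to 12.97 in R6/2 x DREAM+/-, with no overlap, and 12.59 to 12.82 in wild type and 12.93 to 12.98 in DREAM+/-, also with none. The mean log2 level of the same 8 markers overlapped between wild type (8.80 to 9.10) and DREAM+/- (9.09 to 9.13). It did not overlap between R6/2 (8.82 to 8.96) and R6/2 x DREAM+/- (9.01 to 9.10). C1qb was the only 1 of the 8 to pass, and it was higher in both DREAM+/- comparisons. Of 8 astrocyte markers, 2 were higher (Gfap and Agt) and 1 lower (S100b) in R6/2 x DREAM+/- than in R6/2. No marker of these lists was below the brightness filter. Their part in the changes of the histone enzyme genes was not tested.

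**Figure D4:**
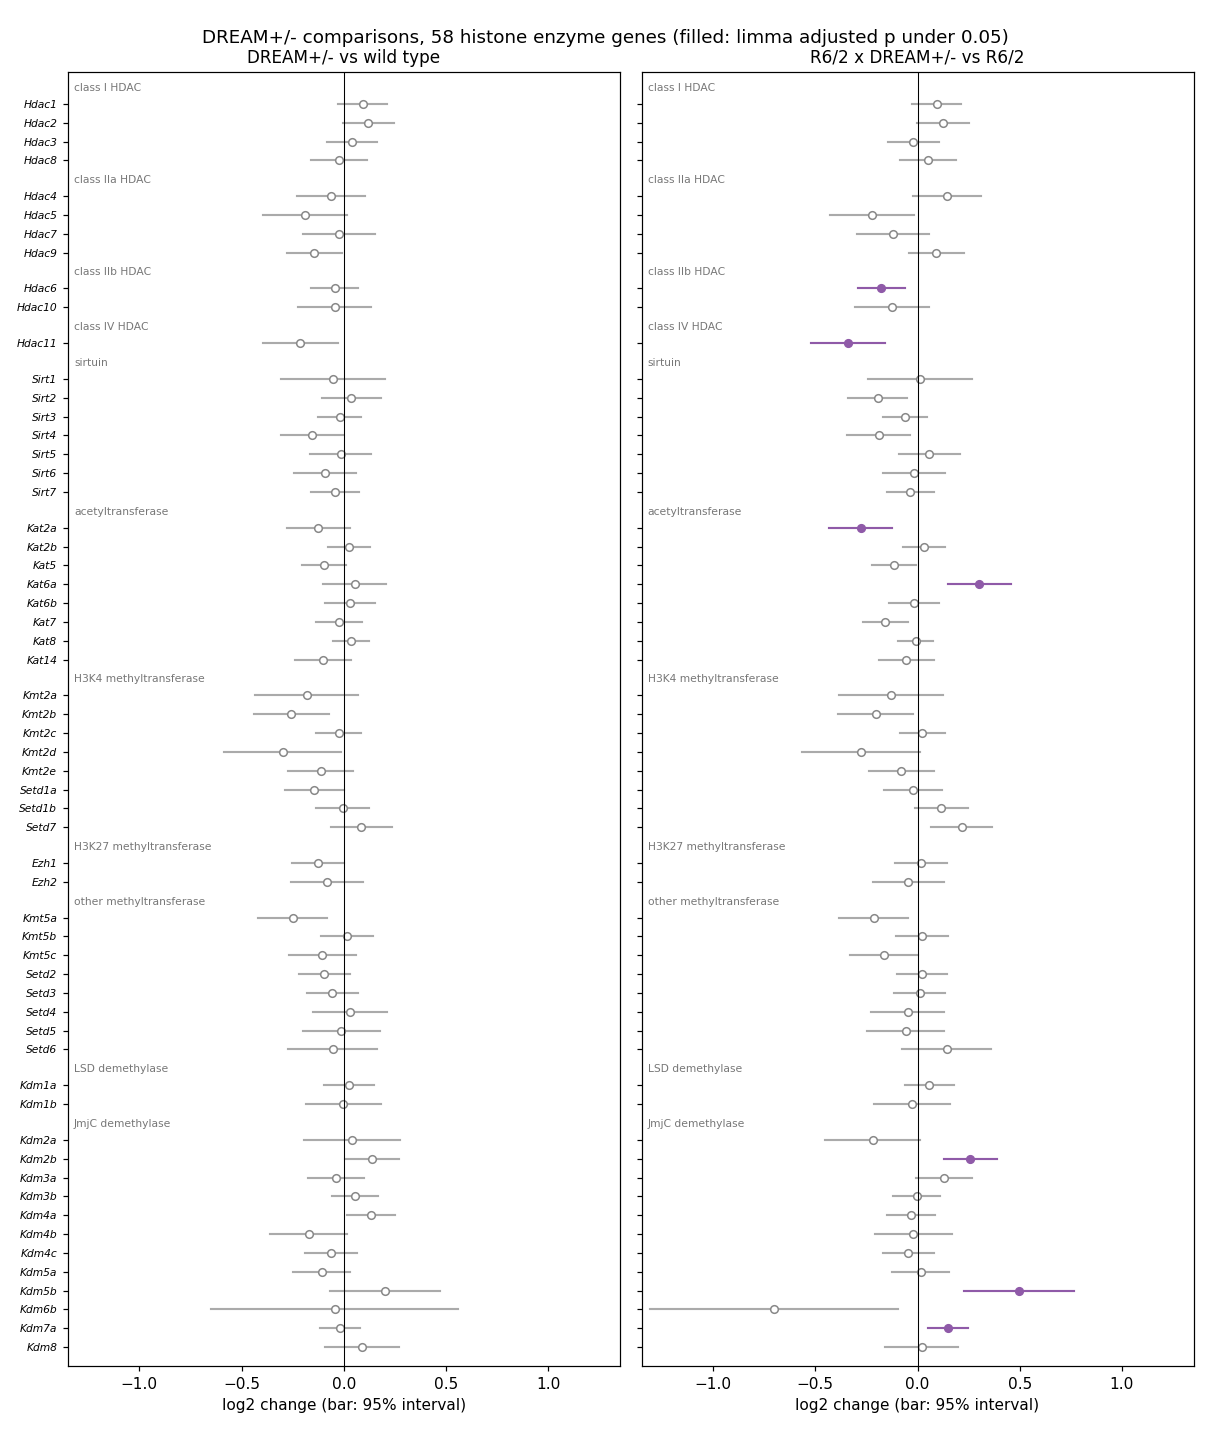
Log2 change (points) with 95% interval (lines) of each tested histone enzyme gene, grouped by role, in DREAM+/- against wild type (left) and R6/2 x DREAM+/- against R6/2 (right), with filled points for genes that passed. No point is filled on the left, and 7 are filled on the right, from Hdac11 at -0.34 to Kdm5b at 0.50.

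Whether the effect of the transgene differed between DREAM backgrounds was tested as an interaction. It passed for 0 of 58 histone enzyme genes and 0.00% of all genes (limma), and 4 of 58 (6.90%) had an unadjusted p under 0.05, the same share as all genes (6.90%). The 4 were Hdac9, Kat6a, Kdm7a and Sirt2. Their differences were 0.24 ± 0.09 for Hdac9, 0.25 ± 0.10 for Kat6a, 0.17 ± 0.07 for Kdm7a and -0.23 ± 0.10 for Sirt2 (log2, SE), with adjusted p of 0.661 to 0.705. So the genes that passed in 1 background alone, such as Hdac4, Hdac9 and Sirt2, were not shown to respond differently in the other.

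Genes that work with these enzymes were counted from lists of partners, and each count is to be read against all genes. The lists were chosen with earlier results of these data known, so a share above that of all genes is a description only. In R6/2 against wild type 25.4% of all genes passed (13.5% higher, 11.9% lower), and in R6/2 x DREAM+/- against DREAM+/- 14.9% passed (7.07% higher, 7.87% lower). Among 21 subunits of the deacetylase corepressors, 5 were higher and 2 lower in R6/2 than in wild type, and 3 were higher and 1 lower in R6/2 x DREAM+/- than in DREAM+/-. Sin3b, a scaffold that holds Hdac1 and Hdac2, rose by 0.65 and 0.48 (log2, limma adjusted p 1.06e-06 and 4.79e-05) and Sap30 of the same complex by 0.36 and 0.47 (adjusted p 0.00857 and 0.00228). The methyl-CpG binder Mbd2 fell by 0.20 and 0.23 (adjusted p 0.0286 and 0.0219). Mta3 of NuRD rose by 0.27 and Tbl1x of NCoR fell by 0.26 in R6/2 against wild type (adjusted p 0.00243 and 0.00408).

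Partners of the class IIa deacetylases, among them the kinases that control their export, were lower for 7 of 19 in R6/2 than in wild type and higher for none, where 11.9% of all genes were lower and 13.5% higher. In the DREAM+/- background 5 were lower and 2 higher, against 7.87% and 7.07% of all genes. Camk4, a calcium-dependent kinase, fell by 0.76 and 0.48 (log2, limma adjusted p 0.000192 and 0.0120), Sik3, a salt-inducible kinase, by 0.44 and 0.35 (adjusted p 2.89e-05 and 0.000540), and the transcription factor Srf by 0.52 and 0.38 (adjusted p 3.24e-05 and 0.00101). Camk4 rose by 0.60 in R6/2 x DREAM+/- against R6/2 (adjusted p 0.00455), and it was the only one of the 19 to pass there.

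Of 10 Polycomb partners, Phf1 was higher in both R6/2 comparisons, by 0.29 and 0.29 (log2, limma adjusted p 0.00330 and 0.00613), and lower in both DREAM+/- comparisons, by -0.39 in DREAM+/- against wild type and -0.39 in R6/2 x DREAM+/- against R6/2 (adjusted p 0.00235 and 0.00141). Epop, an inhibitor within Polycomb complexes, fell by 1.10 and 0.60 with the transgene (adjusted p 3.34e-05 and 0.00876). Kmt2a to Kmt2d work in the COMPASS complexes. Of 14 subunits of these complexes, 5 were higher and 1 lower in R6/2 than in wild type (all genes, 13.5% and 11.9%). In R6/2 x DREAM+/- against DREAM+/-, 3 were higher (all genes, 7.07%). Dpy30 rose by 0.20 and 0.17 (adjusted p 0.00464 and 0.0235), Ash2l by 0.19 and 0.18 (adjusted p 0.00774 and 0.0180), and Psip1 fell by 0.25 in the first comparison (adjusted p 0.00100).

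Acetyltransferases outside the chosen symbols passed for 2 of 12 in R6/2 against wild type and 3 of 12 in R6/2 x DREAM+/- against DREAM+/-, all higher. Over all genes, 13.5% and 7.07% were higher and 11.9% and 7.87% lower in these comparisons. Ep300 rose by 0.18 and 0.23 (log2, limma adjusted p 0.0473 and 0.0227) and the tubulin acetyltransferase Atat1 by 0.28 and 0.23 (adjusted p 0.00426 and 0.0224). Among 36 subunits of acetyltransferase complexes, 3 were higher and 1 lower, then 4 higher and 1 lower, with Morf4l2 up by 0.22 and 0.28 (adjusted p 0.00452 and 0.00132).

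Methyltransferases outside the chosen symbols were higher for 6 and lower for 1 of 27 in R6/2 against wild type, where 25.4% of all genes passed. On the DREAM+/- background they were higher for 2 and lower for 1, where 14.9% of all genes passed. Smyd4 rose by 0.41 and 0.34 (log2, limma adjusted p 0.000213 and 0.00180), and Prmt8, a brain-enriched arginine methyltransferase, fell by 0.40 and 0.33 (adjusted p 0.00942 and 0.0398). Demethylases outside the chosen symbols were higher for 2 of 10 and for 5 of 10, with Phf2 up by 0.28 and 0.32 (adjusted p 0.0143 and 0.0113). None of these 10 was lower in the R6/2 comparisons. Over all genes, 13.5% and 7.07% were higher and 11.9% and 7.87% lower there.

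Of 9 genes of DNA methylation, Dnmt3a, the de novo methyltransferase, fell by 0.45 and 0.34 with the transgene (log2, limma adjusted p 0.000175 and 0.00270). The glycosylase Mbd4 fell by 0.32 in R6/2 against wild type (adjusted p 0.0325) and was higher in both DREAM+/- comparisons, by 0.41 and 0.60 (adjusted p 0.0370 and 0.00171). Among 17 readers of acetyl-lysine, 4 were higher and 3 lower in R6/2 against wild type, where 13.5% and 11.9% of all genes were. On the DREAM+/- background 2 were higher and 2 lower, against 7.07% and 7.87% of all genes. Baz1a fell by 0.62 and 0.63 (adjusted p 0.00296 and 0.00448) and Brdt by 0.44 and 0.25 (adjusted p 0.000675 and 0.0465), while Bptf, the large subunit of NURF, rose by 0.21 and 0.22 (adjusted p 0.0126 and 0.0148).

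The spread within groups limited what could be seen. The median SD of the histone enzyme genes was 0.102 (log2) in wild type against 0.098 over all genes, and 0.053 against 0.066 in DREAM+/-. It was 0.073 against 0.082 in R6/2 and 0.111 against 0.106 in R6/2 x DREAM+/-. Of the 59 genes, 37 had more than 1 probe set and 22 had 1, so that a change in 1 transcript end could be set beside another only for the former.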

How the data were processed

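The deposited table holds log2 levels of 45101 probe sets on 16 arrays of striatal RNA, 4 per genotype, as the authors made them, and the submitters' processing notes name RMA and affy without a version. RMA scales arrays to a common distribution, which removes a shift shared by most genes. Titles gave the groups, and the platform annotation named the probe sets: 34945 had 1 symbol, 932 several, 9160 none and 64 were controls. The 59 histone enzyme genes matched the RefSeq gene table by Entrez identifier. Only the 13011 genes with a mean of at least 5.944, the 40th percentile over probe sets, were tested. The test was limma (version 3.58.1, lmFit and eBayes, under R version 4.3.3), with 1 mean per genotype, all arrays in the fit and Benjamini-Hochberg adjustment over all genes. The steps were tested on simulated data.

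For arrays, the 4 replicates per group limit the precision, and the labels call them biological without naming the animals. The genes, role lists, partner lists, markers and tests were chosen with earlier results of these data known. Array values are given for genes that passed and for Hdac1 to Hdac11, Sirt1, Sirt2, Ezh1, Ezh2, Kat2b, Kmt2a, Kdm1a and Kdm6b, and up to 4 genes per partner list and comparison by unadjusted p are named. Alternatives were other filters, probe-set means, normalizations, weights, variance models, covariates, a replicate block and left-out arrays.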

Additional observations from a re-analysis of the deposited data

Results flagged for a closer look

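In 13 of 232 groups of 4 arrays (5.60%), the highest or lowest array lay farther from the rest, as a share of the group's range, than Dixon's critical value allows. Chance marks about 1 in 20 groups. In wild type these were Kdm8 at 6.07 in replicate 4 (others 6.38 to 6.44), Kmt2e at 10.61 in replicate 4 (others 10.72 to 10.73) and Setd7 at 10.72 in replicate 3 (others 10.59 to 10.61). In DREAM+/- they were Kat5 at 9.72 (others 9.60 to 9.61) and Kat8 at 8.51 (others 8.48) in replicate 1, Kdm7a at 10.25 in replicate 2 (others 10.17), Sirt5 at 8.19 in replicate 3 (others 8.13 to 8.14) and Sirt1 at 7.95 in replicate 4 (others 7.87 to 7.88). In R6/2 they were Hdac11 at 10.58 in replicate 1 (others 10.66 to 10.67) and Kdm4c at 8.41 in replicate 4 (others 8.43). In R6/2 x DREAM+/- they were Kdm6b at 7.83 in replicate 2 (others 9.21 to 9.47), Kmt2b at 9.26 in replicate 3 (others 8.83 to 8.89) and Sirt5 at 8.04 in replicate 4 (others 8.22 to 8.24). All values are log2 levels. In most of these groups the gap was under 0.2, and the Kdm6b gap of more than 1 unit was the widest.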

How the results depend on the processing

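Of 23 calls followed through 27 alternatives each, 8 held under every one and none reversed: Hdac1, Kdm3a and Sirt7 in both R6/2 comparisons, and Kdm4b and Kdm7a in R6/2 against wild type. The other calls were lost under 1 (Hdac11, Kdm2b) to 19 (Kat2b) alternatives. With the mean of all probe sets per gene, Kdm5b (0.16), Kdm2b (0.08), Kat6a (0.06) and Kdm7a (0.01) no longer passed in R6/2 x DREAM+/- against R6/2 and Kmt2c passed (0.24). In R6/2 against wild type Hdac4 (-0.10), Hdac9 (-0.14) and Kat2b (0.13) no longer passed and Ezh1 (0.15) and Setd2 (-0.16) did. On the DREAM+/- background Kdm3b (-0.02) no longer passed and Kdm7a (-0.18) and Setd1b (0.18) did.

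In R6/2 against wild type, 11 genes passed, 7 with only those groups in the fit and 6 to 15 without single arrays (6 without wild type replicate 3, 7 without wild type replicate 1, 15 without R6/2 x DREAM+/- replicate 3). The split of 5 higher and 6 lower became 10 and 6 after quantile normalization and 1 and 7 after shifting arrays to a common median. In R6/2 x DREAM+/- against DREAM+/-, 5 passed, 8 with a filter at the 60th percentile, 8 after quantile normalization (4 higher, 4 lower), 8 with a trended, robust variance and 3 to 7 without single arrays (3 without DREAM+/- replicate 2). In DREAM+/- against wild type, 0 passed, 2 with array weights, 2 without both arrays that stand apart and 0 to 2 without single arrays. In R6/2 x DREAM+/- against R6/2, 7 passed, 4 with probe-set means, 12 with array weights, 11 without both arrays that stand apart and 3 to 13 without single arrays. Its split of 4 higher and 3 lower became 4 and 5 after quantile normalization and 4 and 2 after the median shift. The interaction gave 0 genes under all alternatives run. The cause of these shifts was not tested.

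With a replicate block the counts were 11, 5, 0, 9 and 0 in the order above. Of 24 pairs of same-numbered arrays, deviations correlated above 0.1 in 11, from -0.413 to 0.287. The pairs of replicate 1 ran from 0.027 to 0.219. Pairs with unlike numbers were not compared, so whether the numbers mark a shared handling was not tested. The 4 arrays per group limit what small changes can pass.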
